A study of Rattus norvegicus with 3 samples.

Results

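The hemidesmosome is the junction that fastens the basal cells of an epithelium to the basement membrane, and around teeth and implants it also seals the gingival epithelium against the hard surface. Expression of 8 of its genes was followed: Itga6, Itgb4, Cd151, Col17a1, Plec, Dst, Lama3 and Lamb3. They were chosen by gene symbol, and every probe set annotated to them was used. All 8 were found among 14217 genes with a named probe set, and they held 15 of the 31099 probe sets. Each tissue was measured on 1 rat GeneChip. Peri-implant connective tissue (PICT) came from around a titanium alloy implant that had been set into the socket right after extraction of an upper first molar. Oral mucosa connective tissue (OMCT) came from a first molar socket that healed with no implant, and periodontal connective tissue (PCT) from around the natural upper first molar. All donors were wild-type male Sprague Dawley rats of 9 weeks at harvest. For PICT and OMCT the tooth was taken out at 5 weeks of age and the tissue 4 weeks later. For PCT the word mice appears at one place in the design text, whereas the labels of all samples give rat. Animal numbers per array are not given in the sources used here.

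In stratified epithelium the integrin α6β4 spans the basal cell membrane and binds the epithelial laminin, a trimer that holds the α3 and β3 chains, in the basement membrane. Collagen XVII and the tetraspanin CD151 sit beside the integrin, and the plakins plectin and dystonin link the complex to keratin filaments inside the cell. The junctional epithelium of a tooth has hemidesmosomes on its inner face too, where it meets enamel, and the epithelium beside a titanium implant forms comparable contacts. Loss of COL17A1, LAMA3, LAMB3, ITGB4, ITGA6 or PLEC causes forms of blistering skin disease in humans. Several members are not restricted to epithelium: endothelial cells make integrin α6, CD151, plectin and dystonin, and Schwann cells make integrin α6β4.

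The labels name connective tissue, but basal keratins were bright on all arrays. Krt5 had an intensity of 7965 in PICT, 8595 in OMCT and 9565 in PCT, so epithelium was part of each section. The arrays differed in overall brightness, with a median intensity of 56.5 in PICT, 57.4 in OMCT and 34.3 in PCT. On the log2 scale the PICT array lay 0.60 and the OMCT array 0.62 above the PCT array, while PICT minus OMCT was -0.02. Differences are therefore given relative to the array medians, as log2(intensity + 8.56) with each array's median subtracted, unless "as deposited" is written. A gene with several probe sets is represented by the one with the highest mean log2 level. The 2-fold rule used for counts calls a gene higher or lower at a difference of at least 1 on the log2 scale, provided that the brighter array lay at or above its own median. With 1 array per tissue there is no replicate error and no test of any difference. The only spread that could be measured is that between probe sets of 1 gene. Over 4525 genes their differences had an SD of 0.49 on the log2 scale in each of the 3 comparisons. This SD includes dim probe sets and holds no variation between arrays or animals, so it is not the error of a tissue difference. The share of RNA from a cell type and the level per cell cannot be told apart in such sections. For Hk1, the 3' control probe set divided by the 5' one, a ratio that grows as RNA is shortened, was 1.58 in PICT, 1.97 in OMCT and 2.80 in PCT.

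All 15 probe sets exceeded the highest negative control of their array on all 3 arrays. The brightest probe set of each of the 8 genes ranked between percentile 92.4 and 99.6 of its array. Over all 15 probe sets the range was 63.7 to 99.6. The highest negative control was 8.36 in PICT, 3.60 in OMCT and 5.71 in PCT. The 20th percentile of all values was 8.56, so most probe sets exceeded these controls too. The members were thus bright in every tissue. Brightness does not give the accuracy of a difference, and probe sets of 1 gene differed in size or direction, as given below for Itga6 and Dst.

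**Figure D1:**
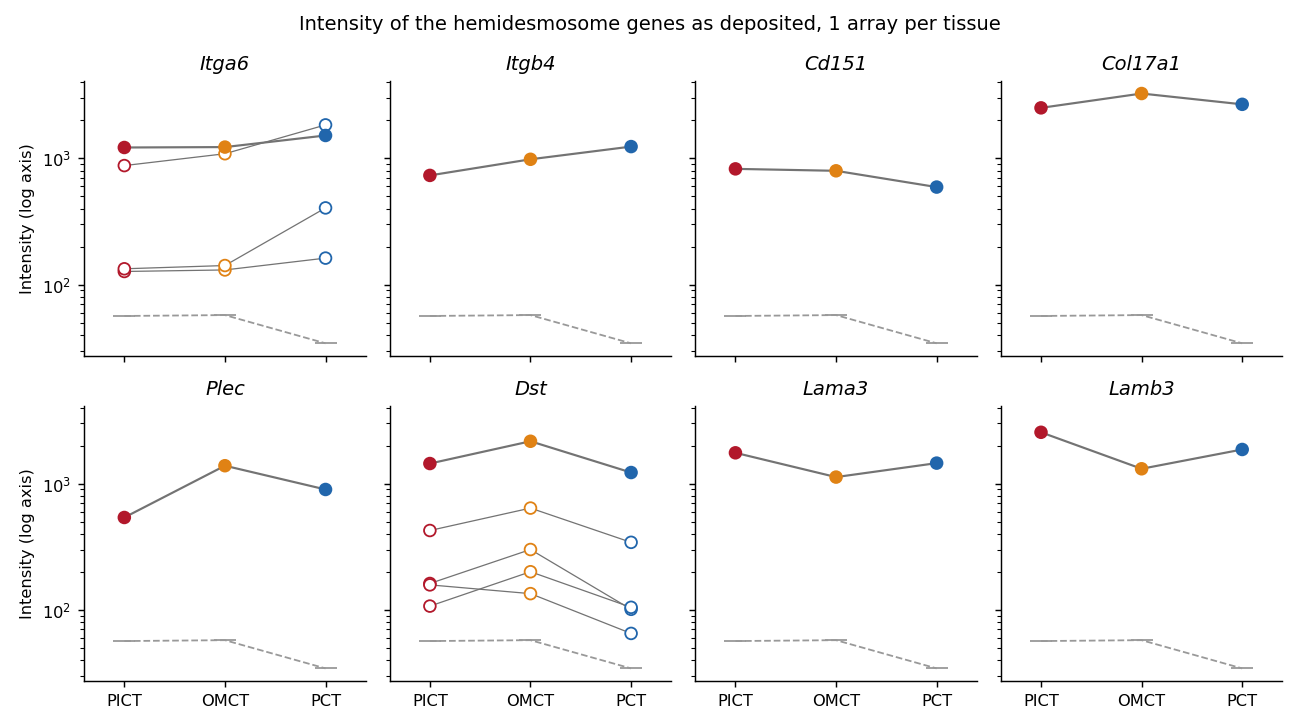
Intensity as deposited (log axis) of the 8 hemidesmosome genes in PICT, OMCT and PCT, with filled points for the probe set that represents the gene, open points for its other probe sets and a dashed line for each array's median intensity. Itgb4 was lowest in PICT, Plec and Dst were brightest in OMCT (relative to the array medians Plec was level between OMCT and PCT), and Lama3 and Lamb3 were lowest in OMCT, while the array median was lower in PCT (34.3) than in PICT (56.5) and OMCT (57.4).

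The integrin pair was highest in tissue around the natural tooth. Itgb4 (probe set 1368612_at), the β4 chain that is specific to hemidesmosomes in epithelium, had an intensity of 734 in PICT, 985 in OMCT and 1242 in PCT. Its relative log2 difference was -1.35 for PICT minus PCT, -0.40 for PICT minus OMCT and -0.95 for OMCT minus PCT. Itgb4 was therefore 2.56-fold lower in PICT than in PCT, past the 2-fold rule, and 1.94-fold lower in OMCT than in PCT, just inside it. As deposited, the difference from PCT was -0.75 in PICT and -0.33 in OMCT, so the order of the tissues held but not the size.

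Itga6 encodes the α6 chain, which pairs with β4 in hemidesmosomes and with β1 elsewhere. Its brightest probe set, 1383240_at, had an intensity of 1221 in PICT, 1230 in OMCT and 1521 in PCT. The relative difference was -0.92 for PICT minus PCT, -0.93 for OMCT minus PCT and 0.01 for PICT minus OMCT, so both extraction sites lay below the tooth site and did not part from each other. The other probe sets gave the same order with other sizes. Probe set 1371186_at had 878 in PICT, 1090 in OMCT and 1844 in PCT, differences of -1.67 for PICT minus PCT and -1.38 for OMCT minus PCT. Probe set 1393558_at had 134 in PICT, 142 in OMCT and 406 in PCT, differences of -2.15 and -2.08 for the same comparisons. Probe set 1371185_at, with 127 in PICT, 131 in OMCT and 162 in PCT, lay near the representative one at -0.93 and -0.92. All 4 probe sets were thus lower in both extraction sites than in PCT, also as deposited, and 2 of them passed the 2-fold rule in each comparison. With the mean over the 4 probe sets in place of the brightest, the difference was -1.42 for PICT minus PCT and -1.33 for OMCT minus PCT. Between PICT and OMCT the 4 probe sets ranged only from -0.29 to 0.01. Which transcript ends or variants these probe sets read was not tested.

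Cd151 (probe set 1367681_at) encodes a tetraspanin that binds laminin-binding integrins sideways in the membrane. It had an intensity of 827 in PICT, 798 in OMCT and 593 in PCT. Its relative values had the smallest spread of the 8 genes: -0.13 for PICT minus PCT, 0.07 for PICT minus OMCT and -0.20 for OMCT minus PCT. As deposited, Cd151 was 0.47 higher in PICT and 0.42 higher in OMCT than in PCT, which is within the shift of the arrays themselves. It therefore did not part from the bulk of genes in any comparison, whichever of these scales is read.

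Col17a1 (probe set 1383365_at), the transmembrane collagen that reaches from the basal cell into the basement membrane, had an intensity of 2517 in PICT, 3269 in OMCT and 2684 in PCT. Its relative differences were -0.69 for PICT minus PCT, -0.36 for PICT minus OMCT and -0.34 for OMCT minus PCT, all under 2-fold. As deposited, the difference from PCT was -0.09 in PICT and 0.28 in OMCT.

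The plakins, which tie the junction to keratin filaments, were lower in PICT than in OMCT by their brightest probe sets, and only Plec passed the 2-fold rule. Plec (probe set 1386941_at) encodes plectin, a very large linker that binds the tail of integrin β4. It had an intensity of 538 in PICT, 1384 in OMCT and 897 in PCT. Plec was 2.51-fold lower in PICT than in OMCT, a relative difference of -1.33, and by the same factor lower in PICT than in PCT, also -1.33. Between OMCT and PCT it differed by 0.00 relative to the array medians and by 0.62 as deposited. The Plec difference between PICT and OMCT passed the 2-fold rule under all 10 settings tried, the array-median scale and 9 others (range -1.35 to -1.28), and only 3.17% of all genes had a lower one. That between PICT and PCT passed under 8 of 10 settings, with -0.73 as deposited. The array carries a single probe set for Plec, and its values have no second reading.

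Dst encodes dystonin, whose epithelial form sits in the inner plaque of the hemidesmosome and whose other forms belong to nerve and muscle. Its brightest probe set, 1382421_at, had an intensity of 1440 in PICT, 2163 in OMCT and 1223 in PCT. The relative differences were -0.56 for PICT minus OMCT, -0.37 for PICT minus PCT and 0.20 for OMCT minus PCT. Probe set 1398598_at (424 in PICT, 639 in OMCT and 342 in PCT) gave nearly the same differences: -0.56, -0.30 and 0.26. The dimmer 1385122_at had 161 in PICT, 300.02 in OMCT and 101 in PCT, and 1397469_at had 107 in PICT, 200.02 in OMCT and 104 in PCT. These too were highest in OMCT, with PICT minus OMCT at -0.84 and -0.83. The probe set 1395274_at, the dimmest in PCT, went the other way between the extraction sites: it had 157 in PICT, 134 in OMCT and 64.9 in PCT, and PICT minus OMCT was 0.24. So 4 of 5 probe sets were lower in PICT than in OMCT, all 5 were higher in OMCT than in PCT, and 0 of 5 passed the 2-fold rule. Against PCT the PICT differences ran from -0.57 to 0.57 and gave no common direction.

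The laminin chains ran opposite to the plakins between the extraction sites. Lama3 (probe set 1370538_at), the α3 chain whose end binds the integrin, had an intensity of 1752 in PICT, 1125 in OMCT and 1451 in PCT. Lamb3 (probe set 1391022_at), the β3 chain, which is particular to the epithelial laminin, had 2547 in PICT, 1309 in OMCT and 1862 in PCT. Both were lowest in OMCT, and this order held as deposited. Lamb3 was 1.97-fold higher in PICT than in OMCT and Lama3 1.58-fold higher, relative differences of 0.98 and 0.66. Lamb3 lay just short of the 2-fold rule here and passed it under 3 of 10 settings. For OMCT minus PCT the differences were -1.13 for Lamb3, past the rule, and -0.99 for Lama3, just short of it. As deposited they were -0.51 and -0.37. Between PICT and PCT the chains differed by -0.15 for Lamb3 and -0.33 for Lama3, against 0.45 and 0.27 as deposited, so no direction was settled.

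RefSeq promoter windows of build GRCr8, each from 250 bases before to 50 bases after an annotated start, were matched by symbol for 5 of the 8 genes: Lama3, Lamb3, Col17a1, Cd151 and Dst. Those of both laminin chains are shown because these genes varied together, and that of Col17a1 because it did not follow them. The Lama3 window is chr18:3952517-3952816 on the plus strand and lies inside the gene's span, at an internal start. The Lamb3 window is chr13:107362303-107362602 on the plus strand, and that of Col17a1 is chr1:256518808-256519107 on the minus strand. Capitals mark matches to TGANTCA (the AP-1 site), TGACGTCA (the cAMP response element) or TATAAA (the TATA box).
Lama3: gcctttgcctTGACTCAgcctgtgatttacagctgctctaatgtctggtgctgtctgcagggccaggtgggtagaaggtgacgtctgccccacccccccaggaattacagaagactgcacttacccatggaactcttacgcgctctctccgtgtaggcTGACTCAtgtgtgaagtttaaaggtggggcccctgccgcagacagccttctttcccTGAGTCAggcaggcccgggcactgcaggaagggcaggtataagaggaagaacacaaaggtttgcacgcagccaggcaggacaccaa
Lamb3: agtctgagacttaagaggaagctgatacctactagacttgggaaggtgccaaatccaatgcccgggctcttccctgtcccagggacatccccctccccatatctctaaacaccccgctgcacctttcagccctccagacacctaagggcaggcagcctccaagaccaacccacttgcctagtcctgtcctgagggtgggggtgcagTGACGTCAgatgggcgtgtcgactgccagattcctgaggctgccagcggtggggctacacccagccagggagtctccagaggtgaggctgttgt
Col17a1: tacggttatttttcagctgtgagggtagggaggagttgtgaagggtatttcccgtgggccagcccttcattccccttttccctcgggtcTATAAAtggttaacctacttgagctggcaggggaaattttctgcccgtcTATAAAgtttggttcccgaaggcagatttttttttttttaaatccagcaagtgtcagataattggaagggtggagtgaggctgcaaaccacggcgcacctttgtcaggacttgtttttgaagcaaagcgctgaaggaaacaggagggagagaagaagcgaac

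Both strands were searched for these motifs, for AACNGGTT (the grainyhead site) and for GGGCGG (the GC box); no 2 matches of different motifs overlapped in the 5 windows. The motifs were picked with the sequences in view. Lama3 held 3 AP-1 matches, which begin 240, 92 and 36 bases before the start. Among 33469 promoter windows of this length, 7.33% held at least 1. The Lamb3 window held 0 AP-1 matches and 1 TGACGTCA, which begins 44 bases before the start; 1.83% of all windows held that motif. Col17a1 held 2 TATAAA matches, beginning 161 and 112 bases before the start, a motif in 14.2% of windows. The GC box, in 33.1% of windows, was found 6 times for Dst and 2 times for Cd151, and 0 times for the other 3. AACNGGTT, in 2.10% of windows, was found once, for Cd151. These are matches of letters only. The expression differences of the laminin pair were not related to them by any test.

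**Figure D2:**
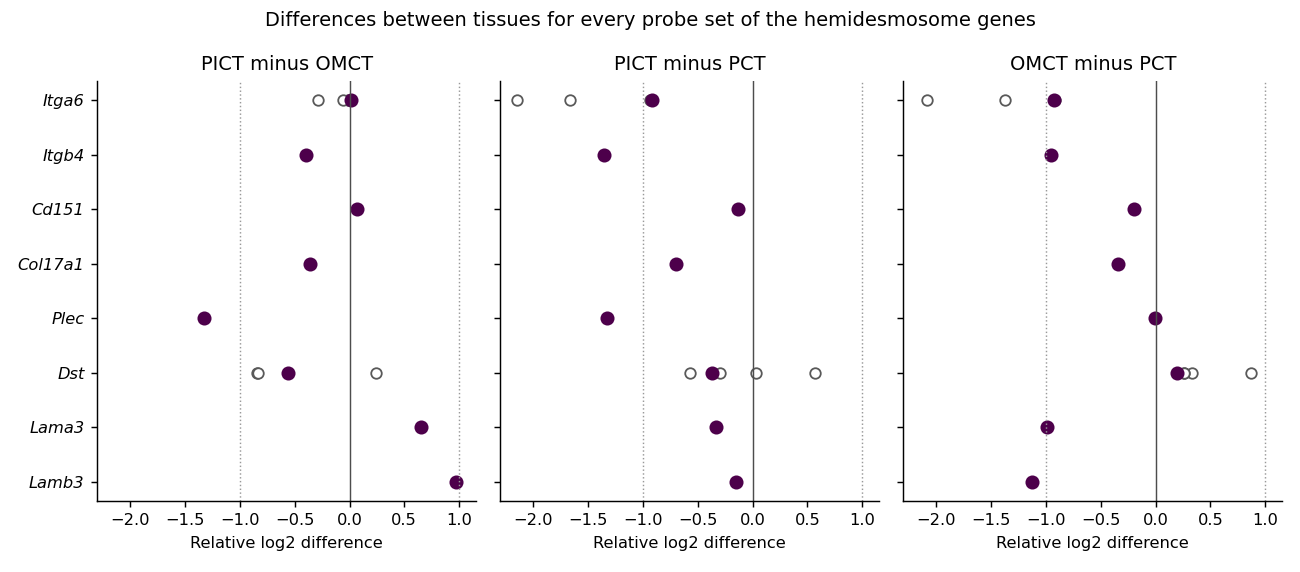
Relative log2 differences (array medians subtracted) of all 15 probe sets, with filled points for the probe set that represents a gene and open points for the others; dotted lines mark 2-fold. For PICT minus OMCT, Plec lay lowest at -1.33 and Lamb3 highest at 0.98. All 4 Itga6 probe sets lay below 0 in both comparisons with PCT.

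Counted over the 8 genes, PICT against PCT gave 0 higher and 2 lower, Itgb4 and Plec, and 6 neither. By the same rule, 3.98% of all 14217 genes were higher in this comparison and 3.37% lower. The member median was -0.53 and that of all genes -0.13. As deposited, 0 members were higher and 0 lower, the member median was 0.07 and the median of all genes 0.47; 14.1% of all genes were then higher and 0.9% lower. Itga6, Itgb4, Col17a1 and Plec were lower in PICT than in PCT under all 10 settings. Dst, Cd151, Lama3 and Lamb3 changed sign among the settings. The 793 genes within the members' range of mean level had a median difference of -0.07, and 2.90% of them were higher and 3.03% lower. The 9 hybridisation control probe sets had a median of -0.40 on the same relative scale. The setting centred on those controls did not subtract this median. It left 1 member lower, Itgb4 at -1.002, barely past the rule, with Plec at -0.978.

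For PICT against OMCT, 0 members were higher, 1 was lower (Plec) and 7 were neither. Of all genes, 4.15% were higher and 4.46% lower, and as deposited 3.98% were higher and 4.64% lower, with the same member counts. Of the 793 genes within the members' range of mean level, 5.93% were higher and 5.55% lower. The member median was -0.17 and that of all genes -0.04. Members lay on both sides: Itgb4, Col17a1, Plec and Dst were lower in PICT under all 10 settings and Cd151, Lama3 and Lamb3 higher under all 10, while Itga6 changed sign around 0. These arrays differ little in scale, and no member's value left the range of -1.35 to 1.02 under any setting. The gap within the set was wide: the Lamb3 difference exceeded that of Plec by 2.30 and that of Itgb4 by 1.38 on the log2 scale.

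For OMCT against PCT, 0 members were higher, 1 was lower (Lamb3) and 7 were neither, while 5.66% of all genes were higher and 4.81% lower. Of the 793 genes within the members' range of mean level, 6.94% were higher and 8.07% lower. The member median was -0.63 and that of all genes -0.08. As deposited, 0 members were higher and 0 lower, with a member median of -0.01 against 0.54 for all genes, of which 17.6% were higher and 2.1% lower. Lama3, Itgb4 and Itga6 lay between -0.99 and -0.93, just short of the rule, so the count of lower members ran from 0 to 4 among the settings. For most of these settings the share of all genes called was not taken. Itga6, Itgb4, Lama3 and Lamb3 were lower in OMCT under all 10 settings, and Dst was higher under all 10. The comparisons share arrays: PCT serves in both comparisons against the tooth site, and their values are not independent.

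**Figure D3:**
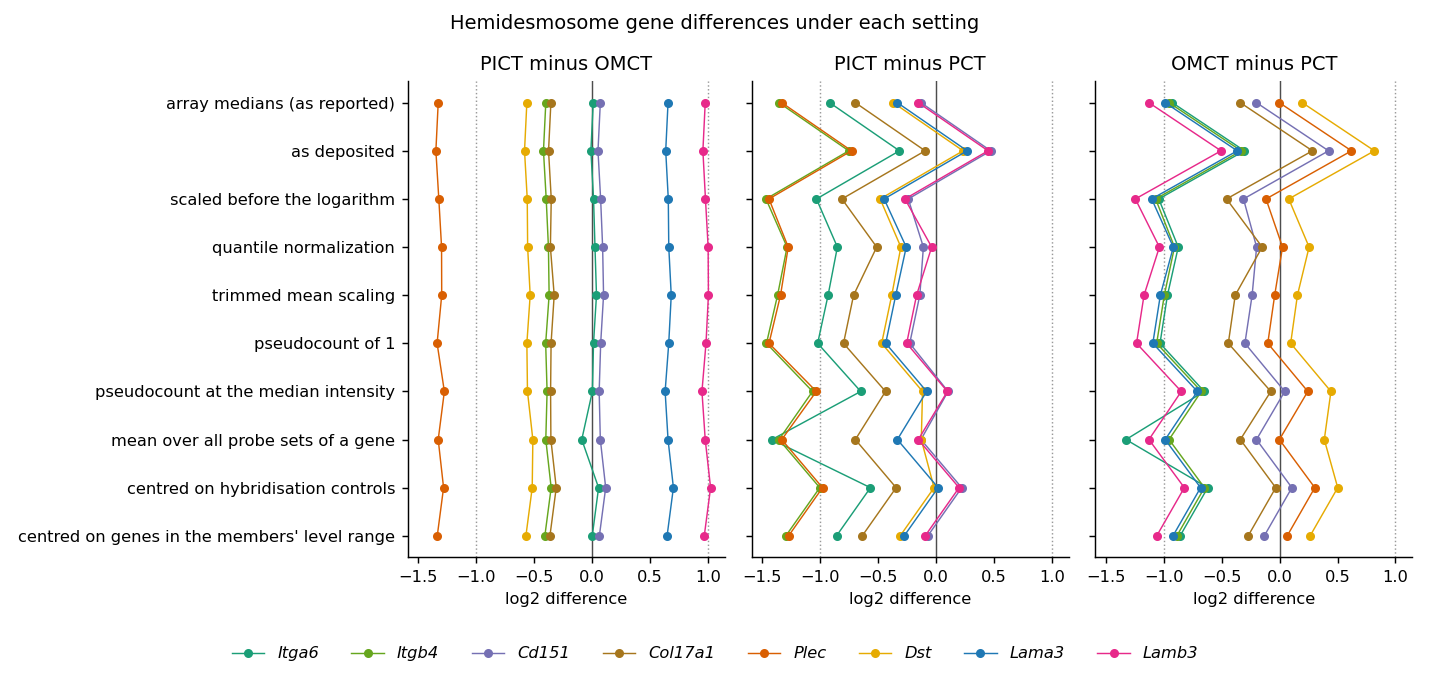
log2 differences of the 8 genes under each of 10 settings (rows; the first, array medians, gives the values in the text), with dotted lines at 2-fold. In PICT minus OMCT each gene kept nearly the same value, Plec between -1.35 and -1.28, while in both comparisons with PCT all genes shifted together as deposited.

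Markers of the cell types in the sections were set beside the members. Of 8 measured basal keratinocyte genes, PICT against OMCT gave 2 higher and 1 lower, with a median of 0.67. Of 11 genes of the upper keratinocyte layers, 10 were higher and 0 lower, with a median of 3.52, and their summed intensity was 24210 in PICT, 4798 in OMCT and 20528 in PCT. Among the members 7 of 8 lay below the basal keratinocyte median in this comparison. Relative to that median, Plec differed by -2.00, Dst by -1.23, Itgb4 by -1.07 and Col17a1 by -1.02. Itga6 differed by -0.66, Cd151 by -0.60, Lama3 by -0.01 and Lamb3 by 0.31. The laminin chains lay near the basal marker median, and the integrin β4, collagen XVII and plakin genes more than 2-fold below it. Itga6 and Cd151 lay in between, so the members formed a graded series. The basal markers themselves were spread, from -2.10 for Krt15, another basal keratin, to 1.23 for Trim29. Krt5 differed by -0.09 and Krt14 by 0.14. To these 2 keratins Itgb4, at -0.40, and Col17a1, at -0.36, lay closer than Lamb3, at 0.98. The distances from the median thus depend on the markers listed. The subtraction of the median was chosen after the data had been seen.

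In PICT minus PCT the basal keratinocyte median was -0.80, with 0 genes higher and 2 lower, and the upper layer median was -0.36, with 0 higher and 0 lower. Itga6 lay 0.11 below the basal median, Itgb4 0.55 below and Plec 0.53 below it. Above it lay Col17a1 by 0.11, Dst by 0.44, Lama3 by 0.47, Lamb3 by 0.65 and Cd151 by 0.67. In OMCT minus PCT the basal median was -1.03, with 0 higher and 4 lower, and the upper layer median -3.48, with 0 higher and 10 lower. There Lamb3 lay 0.09 below the basal median and Lama3, Itgb4 and Itga6 lay 0.05, 0.08 and 0.11 above it. These 4 genes were thus near the median, but the basal markers were spread from -2.29 for Cdh3 to -0.57 for Tp63. Col17a1, Cd151, Plec and Dst lay 0.69, 0.83, 1.03 and 1.23 above the basal median. The summed intensity of the basal list was 29668 in PICT, 25015 in OMCT and 32508 in PCT.

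Endothelial and fibroblast markers also differed between the sections. The 7 measured endothelial genes had medians of -1.16 for PICT minus PCT (4 lower, 0 higher), -1.31 for PICT minus OMCT (4 lower, 0 higher) and 0.04 for OMCT minus PCT (0 and 0). Plec, at -1.33, -1.33 and 0.00, stood near these medians in each comparison. The endothelial genes themselves were spread, in the same order from -2.26 to -0.19, from -2.30 to 0.03 and from -0.44 to 0.23. Nearness of 1 probe set to their median therefore says little. The other members that endothelial cells make did not follow the endothelial medians throughout. In the same order of comparisons Itga6 stood at -0.92, 0.01 and -0.93, Cd151 at -0.13, 0.07 and -0.20, and Dst at -0.37, -0.56 and 0.20. The summed endothelial intensity was 2045 in PICT, 3647 in OMCT and 2367 in PCT. The 8 fibroblast genes had a median of -0.69 for PICT minus OMCT (3 lower, 0 higher), -0.04 for PICT minus PCT (1 higher, 0 lower) and 0.97 for OMCT minus PCT (4 higher, 0 lower), with summed intensities of 31233 in PICT, 48864 in OMCT and 23758 in PCT. All endothelial and fibroblast markers exceeded the highest negative control on each array. Of 5 measured Schwann cell markers, 3 were lower in PICT than in PCT and 1 higher (median -1.13), beside -1.35 for Itgb4 and -0.92 for Itga6. One of the 3, Sox10, did not exceed the highest negative control in PICT. In OMCT minus PCT their median was -0.78, with 1 higher and 1 lower, beside -0.95 for Itgb4 and -0.93 for Itga6. Their summed intensity was 697 in PICT, 701 in OMCT and 904 in PCT. What part these cell types have in the member values was not tested.

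**Figure D4:**
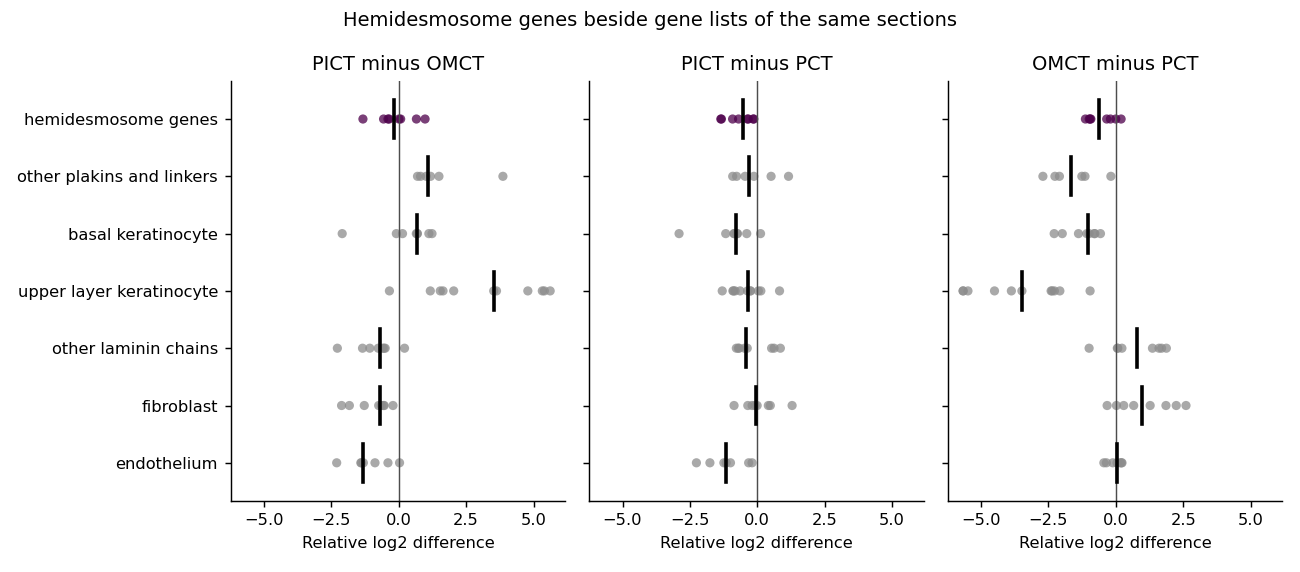
Relative log2 differences of the 8 hemidesmosome genes (top row) and of the genes of 6 lists, with a bar at each median. In PICT minus OMCT the hemidesmosome median was -0.17, against 0.67 for basal and 3.52 for upper layer keratinocyte genes and -1.31 for endothelium.

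The genes that work beside the members differed in their own ways. Of 8 measured anchoring and partner genes, PICT against PCT gave 0 higher and 0 lower (median -0.72), and 0 higher and 1 lower in PICT against OMCT (median 0.09). In OMCT against PCT 1 was higher and 1 lower (median -0.88). The gene that stood out was Col7a1, which encodes the collagen of anchoring fibrils beneath the hemidesmosome. It had an intensity of 314 in PICT, 1611 in OMCT and 167 in PCT, a difference of -2.31 for PICT minus OMCT and 2.59 for OMCT minus PCT. Fibroblasts and keratinocytes both make this collagen. The lower gene in OMCT was Lad1 (ladinin, an anchoring filament protein) at -1.14. Itga3, whose chain pairs with β1 and binds the same laminin, differed by -0.93 for PICT minus PCT, -0.78 for PICT minus OMCT and -0.15 for OMCT minus PCT. Krt5 and Krt14, the keratin pair of basal cells, differed by -0.87 and -0.85 for PICT minus PCT, and by -0.78 and -0.99 for OMCT minus PCT.

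Other plakins and cytoskeletal linkers, several of which serve desmosomes or the cornified envelope, differed in other directions than Plec and Dst between the extraction sites. Of these 6 genes PICT against OMCT gave 4 higher and 0 lower (median 1.10). Eppk1 (epiplakin) differed by 3.86, Evpl (envoplakin) by 1.49, Ppl (periplakin) by 1.18 and Dsp (desmoplakin) by 1.02. In OMCT against PCT 0 were higher and 5 lower (median -1.68), led by Eppk1 at -2.71, Evpl at -2.26, Ppl at -2.09 and Jup (plakoglobin) at -1.26. In PICT against PCT 1 was higher, Eppk1 at 1.16, and 0 lower (median -0.29). The difference of Plec and Dst from these plakins was not tested.

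The other laminin chains belong mainly to stroma, vessels and nerve. Of 8 measured, PICT against OMCT gave 0 higher and 3 lower (median -0.68): Lama2 at -2.28, Lama4 at -1.34 and Lamc1 at -1.08. In OMCT against PCT 4 were higher and 0 lower (median 0.79), with Lama4 at 1.88, Lamc1 at 1.70, Lama2 at 1.60 and Lamb1 at 1.36, where Lama3 and Lamb3 were at -0.99 and -1.13. Lamc3, a dim γ3 chain gene, was at 0.21 for PICT minus OMCT and -0.99 for OMCT minus PCT, close to Lama3 in the second. In PICT against PCT 0 were higher and 0 lower (median -0.42). Among 8 other integrin chains, PICT against OMCT gave 0 higher and 2 lower (median -0.79), Itga9 at -1.90 and Itga5 at -1.74. In OMCT against PCT the same genes were higher, at 1.84 and 1.14, and 0 were lower (median 0.20), while 1 was lower in PICT than in PCT, Itga1 at -1.02 (median -0.45).

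As deposited, the comparisons with PCT shifted upward for every list. In PICT minus PCT the list median then changed sign for the upper keratinocyte layers (0.24), fibroblasts (0.56), the other plakins (0.31), the other laminin chains (0.18) and the other integrin chains (0.15), but not for basal keratinocytes (-0.20), endothelium (-0.55) or the anchoring genes (-0.12). In OMCT minus PCT no median of these lists changed sign, and 10 upper layer genes, 3 plakins and 2 basal keratinocyte genes were lower as deposited, while 5 fibroblast genes and 4 other integrin chains were higher. Lad1, at -0.52, was then no longer lower. In PICT against PCT as deposited, 2 endothelial genes were lower in place of 4 (Pecam1 stood at -0.55 and Vwf at -0.64), as were 2 Schwann cell genes in place of 3 and 1 basal keratinocyte gene in place of 2. There 3 fibroblast genes, 3 other laminin chains, 2 plakins and 1 upper layer gene were higher, and 0 other integrin chains were lower. The PICT minus OMCT counts of these lists were the same as deposited, apart from 3 plakins higher in place of 4.

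Genes with a pattern over the 3 arrays most like the member median were Rangap1, Gtpbp1, Serpinb1a, LOC100909928 and Timm17a. Likeness was the distance between the relative log2 values of the 3 arrays, each gene centred on its own mean. It was 0.018 to 0.030 on the log2 scale for these genes, among 7100 genes above the median level. Nearest to Itgb4 were Sdc3, Sema3g and Bag3, at distances of 0.050, 0.055 and 0.073, and nearest to Col17a1 were Dhrsx, Mief1 and Slc35b1, at 0.016, 0.022 and 0.022. With 3 arrays many genes share any such pattern, and these names are a description only.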

How the data were processed

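RNA from laser-microdissected tissue was purified on RNeasy columns, and biotin labelling used the GeneChip 3'IVT Express kit, per the labels' protocols. The authors deposited 1 linear intensity for each probe set, from 0.0124 to 13104. Their summarisation and scaling are not given in the sources used here.

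Gene names came from the platform annotation of 2016: 20832 probe sets had 1 symbol, 436 several and 9831 none, and only the first were used. Of 20826 that are not controls, 20758 matched a RefSeq gene of GRCr8 by gene ID. The pseudocount of 8.56 is the 20th percentile of all values. Medians were taken over all probe sets. The members, 16 gene lists and the scaling were chosen with earlier results of these data known. Named genes were all members and up to 4 genes of a list with the largest differences past the 2-fold rule. Krt5, Krt14, Itga3 and Col7a1 were named in any case. Krt15, Krt18, Lamc3, Tp63, Cd9, Itgb6, Adam10, Adam17 and the muscle genes were named after their values were seen. Likeness named the 5 genes nearest the member median and the 3 nearest each of Itgb4 and Col17a1. The number of arrays, 1 per tissue, limits the precision. The fold rule was checked on simulated data with planted changes well past the rule and little noise. That check does not bear on values near 2-fold. Python 3.11.15, numpy 2.4.6 and pandas 2.3.3 were used.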

Additional observations from a re-analysis of the deposited data

How the results depend on the processing

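No paired analysis was possible because each tissue has 1 array, and no replicate could be left out. Beside the array-median setting, 10 alternatives were run, 2 of them (centring on hybridisation controls, and on genes in the members' level range) added after the data were seen; dropping the brightness condition bears on counts only. In PICT against PCT the count of higher members was 0 under all of them. The count of lower members was 2 with array medians, 0 as deposited, 1 with centring on hybridisation controls and 3 when scaled before the logarithm, with a pseudocount of 1 and with the mean over probe sets, where Itga6 was added at -1.03, -1.02 and -1.42; the member median, -0.53 with array medians, was 0.071 as deposited. In PICT against OMCT the count of higher members, 0 with array medians, was 1 (Lamb3) with quantile normalization, with trimmed mean scaling and with centring on hybridisation controls, and the count of lower members stayed at 1. In OMCT against PCT the count of lower members, 1 with array medians, was 0 as deposited, 4 when scaled before the logarithm, 2 with trimmed mean scaling, 4 with a pseudocount of 1, 0 with a pseudocount at the median intensity, 2 with the mean over probe sets and 0 with centring on hybridisation controls. The member median, -0.63, was -0.010 as deposited. The cause of these shifts was not tested. The share of all genes called was taken only with array medians and as deposited. Member counts under the other settings therefore have no such share beside them. A call that passed 2-fold with array medians did not change sign for any single gene. Every member probe set exceeded the highest negative control, as did most probe sets of the arrays.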

Other observations

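Genes listed for the junctional epithelium, the collar that meets the tooth, gave mixed values. Odam, Amtn and Scpppq1 were on this list but had no named probe set, so the counts rest on the other genes. Of these, Krt18 did not exceed the highest negative control in PICT. Of 7 measured, PICT against PCT gave 1 higher and 2 lower (median -0.53), PICT against OMCT gave 3 higher and 1 lower (median 0.95), and OMCT against PCT gave 0 higher and 4 lower (median -1.61). Krt7, a keratin of simple and junctional epithelium, had an intensity of 226 in PICT, 6.25 in OMCT and 550 in PCT, and Slpi, a secreted inhibitor of neutrophil elastase, had 3124 in PICT, 347 in OMCT and 733 in PCT. Krt19, another keratin of junctional epithelium, had 20.3 in PICT, 82.6 in OMCT and 603 in PCT. Its difference was -5.01 for PICT minus PCT and -1.64 for PICT minus OMCT, where Krt7 was at 4.01 and Slpi at 3.16. Itgb6, whose integrin is a known feature of junctional epithelium, had 115 in PICT, 56.2 in OMCT and 64.9 in PCT, with all differences under 2-fold.

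Of 8 measured epithelial transcription factors, PICT against OMCT gave 4 higher and 0 lower (median 1.28), with Grhl3 at 2.13, Klf5 at 1.60, Ehf at 1.58 and Klf4 at 1.39. In OMCT against PCT 0 were higher and 4 lower (median -1.14), and in PICT against PCT 0 were higher and 0 lower (median -0.03). Tp63, a factor that basal cells depend on, stood at an intensity of 1821 in PICT, 1141 in OMCT and 1099 in PCT, with differences of 0.12 for PICT minus PCT, 0.69 for PICT minus OMCT and -0.57 for OMCT minus PCT.

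Proteases able to cut the epithelial laminin or collagen XVII formed a list of 10 measured genes. PICT against PCT gave 2 higher and 0 lower (median 0.36), Mmp9 at 2.80 and Mmp7 at 2.34, although Mmp7 did not exceed the highest negative control in PCT. In PICT against OMCT 2 were higher and 1 lower (median 0.33), with Mmp2 at -1.79 lower, and in OMCT against PCT 3 were higher and 0 lower (median 0.44). Adam10 and Adam17, known sheddases of membrane proteins, differed by -0.02 and 0.12 for PICT minus PCT.

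Genes of migrating keratinocytes were higher for 4 of 9 and lower for 0 in PICT than in PCT (median 1.03), among them Areg (amphiregulin) at 1.67. They were higher for 4 and lower for 3 in PICT than in OMCT (median 0.41), and higher for 5 and lower for 2 in OMCT than in PCT (median 1.14). The 3 lower in PICT than in OMCT were Tnc (tenascin C, a matrix protein) at -2.46, Mmp10 at -2.22 and Itga5 at -1.74. The 4 higher were Hbegf, an EGF receptor ligand, at 1.65, Mmp9 at 1.59, Areg at 1.11 and Krt17, a keratin of wounded epithelium, at 1.03.

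Of 12 other tetraspanins, PICT against PCT gave 2 higher and 1 lower (median 0.23), PICT against OMCT gave 0 higher and 0 lower (median -0.14), and OMCT against PCT gave 4 higher and 1 lower (median 0.42). Cd53, a leukocyte tetraspanin, led at 2.67 in PICT minus PCT and 2.58 in OMCT minus PCT, while Cd9, abundant in epithelium, differed by -0.28 in both.

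Among 8 macrophage markers, PICT against PCT gave 5 higher and 0 lower (median 2.02), 0 higher and 2 lower in PICT against OMCT (median -0.59), and 8 higher and 0 lower in OMCT against PCT (median 2.59). The Schwann cell markers had a median of -0.11 for PICT minus OMCT, with 0 higher and 0 lower. Of 8 skeletal muscle markers, 0 and 0 passed the rule in PICT against PCT (median -0.68), PICT against OMCT gave 1 higher and 0 lower (median 0.11), and 0 higher and 1 lower in OMCT against PCT (median -0.99). The muscle gene that passed in both was Myh1, a fast myosin heavy chain. It had an intensity of 3339 in PICT, 1620 in OMCT and 2681 in PCT, whereas the brightest of the other 7 muscle markers, Tnnt3, had 115 in PICT, 80.7 in OMCT and 46.1 in PCT.

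As deposited, PICT minus PCT medians changed sign for the junctional epithelium list (0.08) and the transcription factors (0.58), and stayed below 0 for Schwann cell (-0.53) and muscle (-0.08) markers. In PICT against PCT there were then 6 higher and 0 lower tetraspanins, 5 higher proteases (median 0.96), 5 higher migrating keratinocyte genes, 7 higher macrophage genes and 1 higher muscle gene. Likewise OMCT against PCT gave 8 higher and 0 lower tetraspanins, 4 higher proteases, 6 higher and 1 lower migrating keratinocyte genes, 3 lower junctional epithelium genes, 3 lower transcription factors and 0 lower muscle genes. OMCT minus PCT medians kept their sign for all lists of this section.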
